A study of Homo sapiens with 4 samples.

Results

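The genes described here are 47 marker genes of the proliferating cell cycle, 22 of the DNA synthesis (S) phase and 25 of the transition through G2 into mitosis (G2/M). They were chosen by symbol as markers of these phases, with earlier results of these data known. Each symbol stood on 1 of the 58336 gene rows of the count table. RNA sequencing was done on AGS, a gastric adenocarcinoma line, and HGC-27, an undifferentiated gastric carcinoma line, both labelled wild type, with no engineered change. Each line gave 1 library after 1 day in 10 nM estradiol, the main oestrogen, and 1 control library without it. The design allowed the 2 libraries of AGS to be set against the 2 of HGC-27, and the 2 estradiol libraries to be set against the 2 controls with the line as a block. Nothing in the labels says that the libraries came from separate cultures, so p-values measure only the spread between these 4 libraries, pooled over genes.

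Passage through the cell cycle is accompanied by waves of transcription. Late in G1, release of E2F factors from the retinoblastoma protein turns on genes for licensing replication origins, copying DNA and supplying nucleotides. Genes for mitosis are held back by the DREAM complex, which binds a promoter element called the cell cycle genes homology region (CHR), often near CCAAT boxes bound by NF-Y, and are later activated by B-MYB and FOXM1 through the same MuvB core proteins. In RNA from a whole culture, fewer cells in a phase and less RNA per cell cannot be told apart.

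The 4 libraries held between 24597379 and 28734374 counts. The 6 epithelial marker genes summed to 4799 and 4566 TPM (counts per gene length, scaled to a common total within each library) in the estradiol and control libraries of AGS, against 38.3 and 35.4 TPM in those of HGC-27. The 5 mesenchymal markers summed to 2.41 and 2.19 TPM in AGS, against 1225 and 1198 TPM in HGC-27, and 3 fibroblast genes to at most 4.30 TPM in AGS and at least 507 TPM in HGC-27. The summed epithelial markers were therefore far lower in HGC-27 than in AGS, though none of the 6 genes was at 0 in any library. EPCAM, at 0.43 and 0.46 TPM in HGC-27, made up a small part of the sum there. Leukocyte markers summed to at most 5.99 TPM and endothelial markers to at most 0.211 TPM in any library. The part of these differences in the results below was not tested.

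All 47 genes were well expressed in every library and passed the filter on low counts, which kept 18278 genes. Among protein-coding genes, the lowest of them stood at the 64.3rd percentile of TPM. PCNA, the sliding clamp of the replication fork, had the highest level, with 847 and 883 TPM in the estradiol and control libraries of AGS, against 554 and 556 TPM in those of HGC-27. MCM7, a subunit of the replicative helicase, stood next among the S genes in HGC-27 at 452 and 463 TPM, but had 162 and 157 TPM in AGS. RRM1, the large subunit of ribonucleotide reductase, had 211 and 205 TPM in AGS, against 229 and 220 TPM in HGC-27. PCNA was thus higher in AGS, MCM7 higher in HGC-27, and RRM1 close in all libraries.

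Of the G2/M genes, TPX2, a spindle assembly factor that activates Aurora A, had 435 and 426 TPM in AGS, against 328 and 333 TPM in HGC-27. TOP2A, the topoisomerase that untangles sister chromatids, had 394.4 and 391.8 TPM in AGS, against 476 and 462 TPM in HGC-27. CDC20, an activator of the anaphase-promoting complex, had 339 and 314 TPM in AGS, against 415 and 428 TPM in HGC-27. The levels of these 3 genes did not overlap between the lines, but 77.2% of all genes tested were called different between them (edgeR, below). At the low end, CCNE2, a cyclin E, had 21.3 and 21.7 TPM in AGS, against 15.9 and 15.2 TPM in HGC-27, and CDC25C, a phosphatase that activates CDK1, had 23.2 and 25.9 TPM against 20.2 TPM in each HGC-27 library. Across the 47 genes, log2 mean TPM in the lines correlated at r = 0.81 (Pearson, across genes, which are not independent replicates).

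Summed over their members, S genes came to 2647 and 2623 TPM in the estradiol and control libraries of AGS, against 3173 and 3213 TPM in those of HGC-27. The G2/M genes came to 4468 and 4370 TPM in AGS, against 3951 and 4003 TPM in HGC-27. The S sum was therefore 0.593 and 0.600 of the G2/M sum in AGS and 0.803 of it in both HGC-27 libraries. Within a line the sums of the estradiol and control libraries were closer to each other than to either library of the other line.

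**Figure D1:**
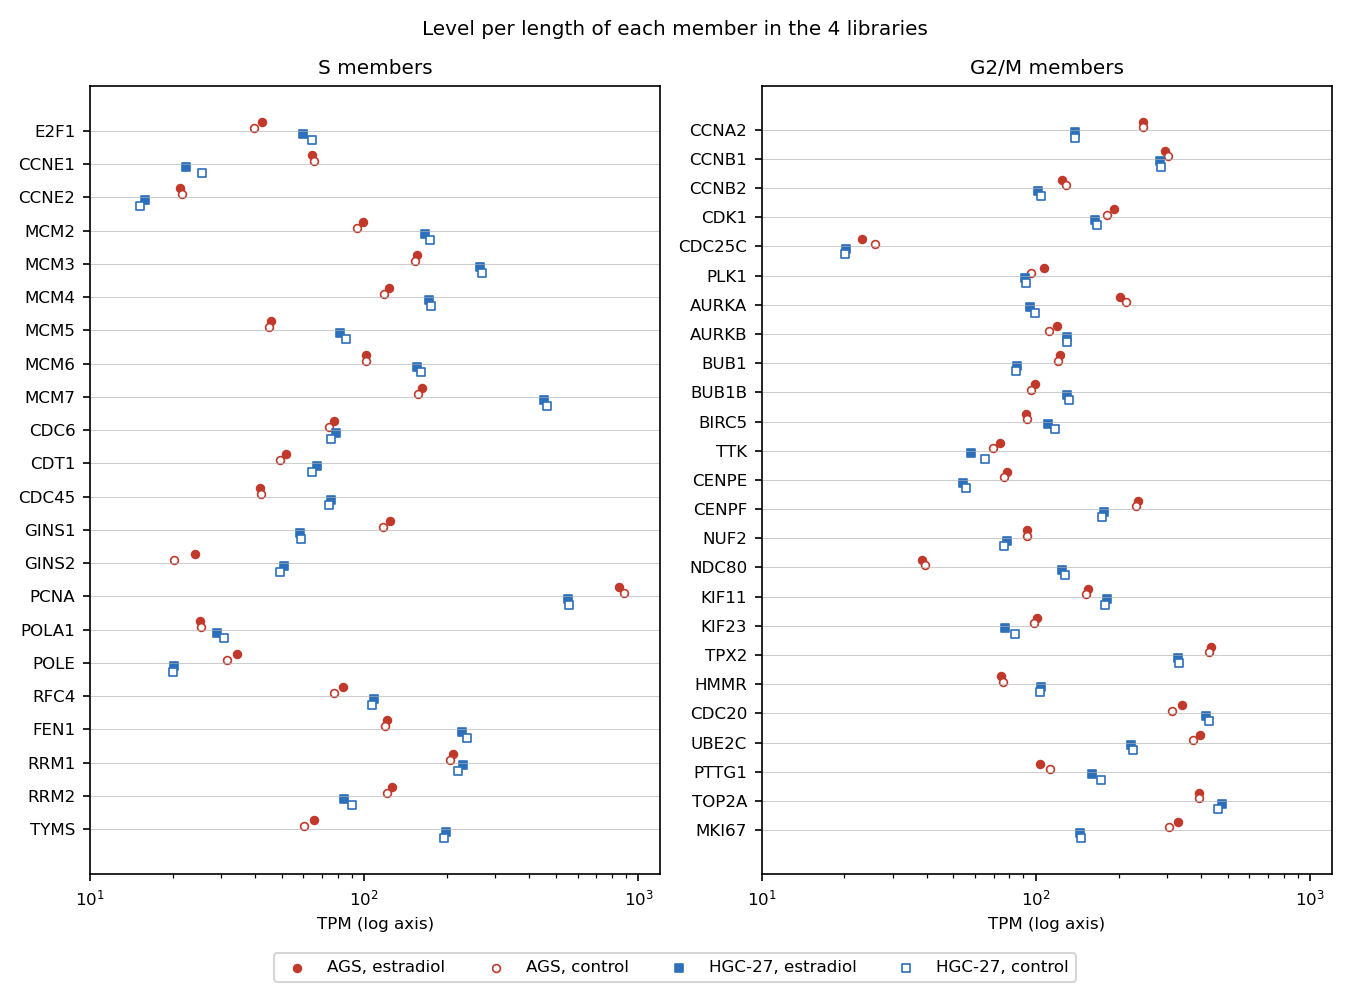
Level of each of the 47 genes in TPM (log axis) in the 4 libraries, with S genes and G2/M genes in separate panels; each point is 1 library, with AGS and HGC-27 in different colours. Points of the same line lie close together for nearly every gene, and the widest gaps between lines are those of NDC80, TYMS, MCM7 and CCNE1.

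The comparison of AGS with HGC-27 asked how far the lines differ in these programmes. Of the 47 genes, 21 were higher in AGS and 23 higher in HGC-27 by edgeR's quasi-likelihood test with Benjamini-Hochberg adjustment over all genes tested (adjusted p under 0.05, n = 2 libraries per line). Among all genes tested, 77.2% were called, 35.7% higher in AGS and 41.5% higher in HGC-27, so that a call between these lines is the rule. The phases leaned in opposite directions. S genes had 6 members higher in AGS and 14 higher in HGC-27, with a median log2 difference (AGS minus HGC-27) of −0.47, and G2/M genes had 15 higher in AGS and 9 higher in HGC-27, with a median of 0.23, while the median over all genes was −0.10. The median size of the difference regardless of sign was 0.68 log2 for S genes and 0.36 for G2/M genes, both smaller than the 0.89 of all genes. These comparisons were not matched for depth, and the genes tested include many of lower count than the members. With only genes averaging at least 100 counts, 10073 of 11952 were called. The medians with sign were then −0.53 for S genes, 0.17 for G2/M genes and −0.03 for all genes. CDC6, RRM1 and CCNB1 were not called.

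**Figure D2:**
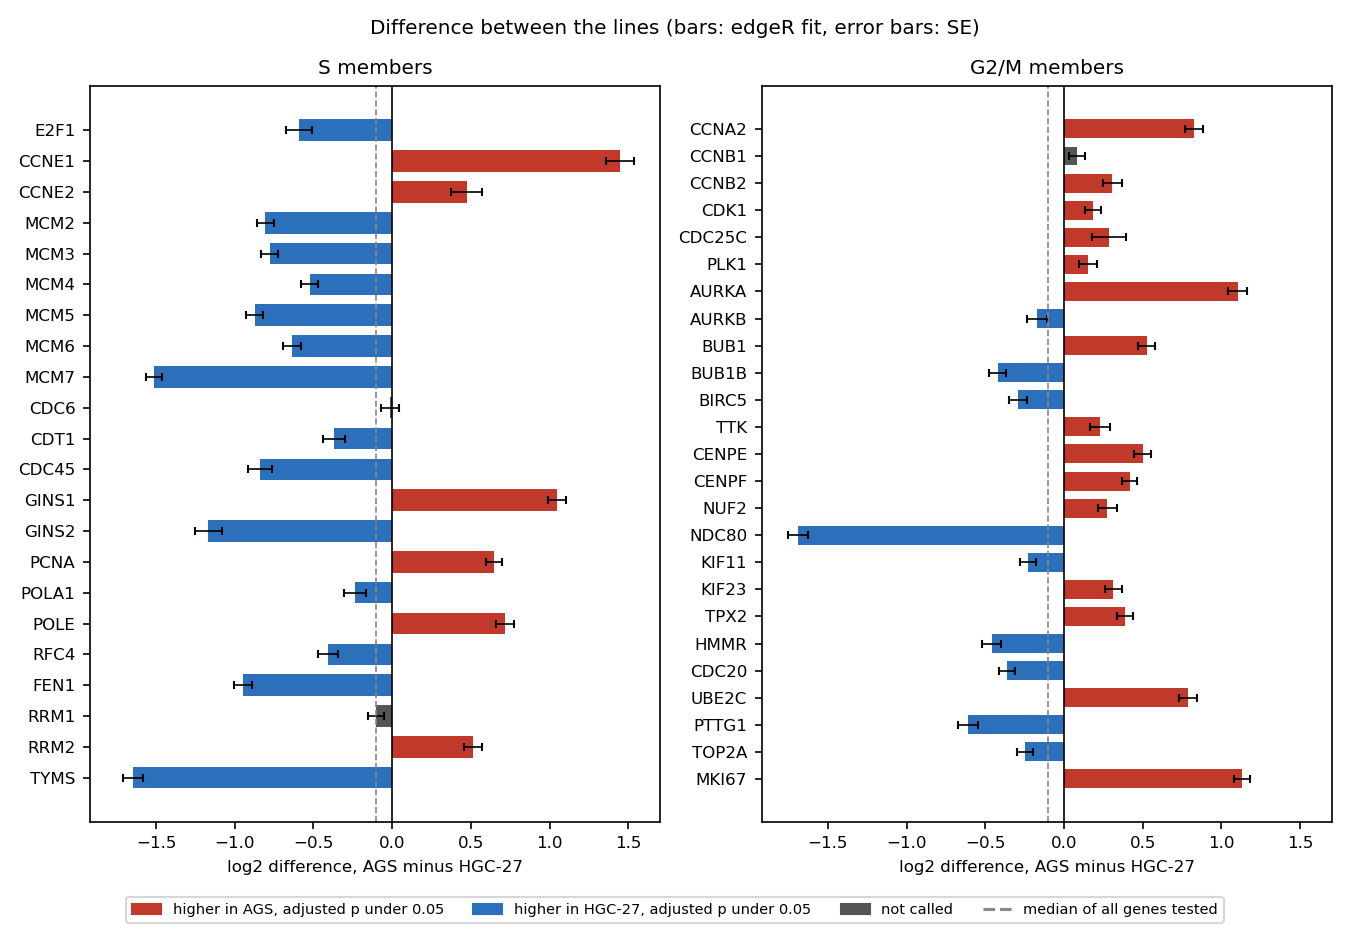
Fitted log2 difference between AGS and HGC-27 (positive where higher in AGS) for each of the 47 genes, with its standard error, grouped by role within the S and G2/M sets. The licensing genes lie at or below 0, and the cyclins, CDK1 and CDC25C lie above 0.

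Origin licensing was the role that leaned most to 1 side: 7 of its 8 genes were higher in HGC-27 and none was higher in AGS. Its median log2 difference was −0.71. The shares over all genes tested were 41.5% higher in HGC-27 and 35.7% higher in AGS. MCM2 to MCM7 encode the ring-shaped helicase that is loaded at origins and later unwinds DNA, and its subunits spanned −1.51 to −0.52. Of the exon bases of MCM2, 23.6% lie in exons of another gene. The loading factor CDT1 lay at −0.37 ± 0.07 (SE), and CDC6, the other loading factor, at −0.01 ± 0.06 with an adjusted p of 0.846. MCM7 (ENSG00000166508, GRCh38 chr7:100092728-100101940), whose levels are given above, had the largest difference of the role, −1.51 ± 0.05 with an adjusted p of 8.8e-100 by edgeR. Its levels were more than those of any other licensing gene in HGC-27 and only slightly above those of MCM3 in AGS, at 155 and 153 TPM.

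The cofactors that complete the active helicase were split between the lines. GINS1 and GINS2 encode partners of the same GINS complex. GINS1 (chr20:25407727-25452628) had 124 and 117 TPM in AGS, against 58.4 and 59.0 TPM in HGC-27, a log2 difference of 1.05 ± 0.06 with an adjusted p of 1.7e-50 by edgeR. GINS2 (chr16:85676198-85690073) had 24.2 and 20.2 TPM in AGS, against 50.9 and 49.2 TPM in HGC-27, a difference of −1.17 ± 0.09 with an adjusted p of 1.04e-33 by edgeR. The directions of GINS1 and GINS2 were thus opposite. The remaining GINS genes, GINS3 and GINS4, which are not among the 47 and were named after their values were seen, lay on the side of GINS2 at −0.62 and −1.55, as did CDC45 at −0.84 ± 0.07.

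DNA synthesis genes were also split. PCNA at 0.65 ± 0.05 and POLE, the catalytic subunit of the leading-strand polymerase, at 0.72 ± 0.06 were higher in AGS. POLE had 34.4 and 31.5 TPM in AGS, against 20.21 and 20.05 TPM in HGC-27. FEN1, the nuclease that trims Okazaki fragments, had 121 and 119 TPM in AGS, against 228 and 238 TPM in HGC-27, a difference of −0.95 ± 0.06. RFC4, part of the clamp loader, lay at −0.41 ± 0.06 and POLA1, the catalytic subunit of the priming polymerase, at −0.24 ± 0.07. The clamp was thus higher in AGS while a subunit of its loader and the nuclease that works with it were higher in HGC-27.

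Nucleotide supply gave the largest S-phase difference. TYMS (thymidylate synthase, ENSG00000176890, chr18:657604-673578) had 65.5 and 60.2 TPM in AGS, against 199 and 196 TPM in HGC-27. The log2 difference was −1.64 ± 0.06, with an adjusted p of 5.24e-87 by edgeR. Of its exon bases, 46.6% lie in exons of ENOSF1 on the opposite strand, and since the use of strand in counting is not given, reads of these genes could not be told apart there. RRM2, the regulatory subunit of ribonucleotide reductase, lay on the other side at 0.51 ± 0.05, with 20.2% of its exon bases in exons of AC007240.1, and RRM1 at −0.11 ± 0.05 with an adjusted p of 0.0544. RRM1 was called higher in HGC-27 in 7 of 14 alternative analyses, so its call turned on the processing.

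The regulators among the S genes were CCNE1 and CCNE2, the cyclin E genes that drive CDK2 into S phase, and E2F1 itself. CCNE1 (chr19:29811898-29824308) had 64.4 and 65.9 TPM in AGS, against 22.3 and 25.7 TPM in HGC-27, a difference of 1.45 ± 0.09 with an adjusted p of 2.82e-45 by edgeR. CCNE2 lay at 0.47 ± 0.10, with 37.1% of its exon bases in exons of INTS8 on the opposite strand. E2F1 had 42.3 and 39.8 TPM in AGS, against 60.002 and 64.6 TPM in HGC-27, a difference of −0.59 ± 0.08. Cyclin E genes were thus higher in AGS and E2F1 higher in HGC-27.

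Promoters were searched because S and G2/M genes are known for different elements. RefSeq promoter sequences of build GRCh38.p14, from 250 bases before to 50 bases after the gene start, were matched for 39 of the 47 genes, and MCM4, MCM5, CCNE2, AURKA, TPX2, BIRC5, UBE2C and TTK had no entry. An E2F motif was taken as TTTGGCGC, TTTCCCGC, TTTCGCGC or TTTGCCGC on either strand. Some genes have several RefSeq starts, so that the 39 genes had 51 promoters. A gene was counted if any of its promoters held a match. Counted so, 13 of 19 S genes and 1 of 20 G2/M genes, CDK1, held an E2F motif, against 3.99% of all 27305 genes. A match describes letters and not binding. The following 60 bases end at the base before a RefSeq start of 4 S genes, and capitals mark the E2F motif. Of the genes named in full with a match wholly before the start, these are the 4 whose match lies nearest to it. GINS1 and CDC6 hold theirs just after the start and are not shown. They lie at chr7:100101398-100101457, chr12:132687343-132687402, chr20:33686386-33686445 and chr16:85688955-85689014, all on the minus strand.
MCM7: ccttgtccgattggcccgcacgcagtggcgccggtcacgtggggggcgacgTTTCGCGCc
POLE: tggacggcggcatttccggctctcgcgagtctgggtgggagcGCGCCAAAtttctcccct
E2F1: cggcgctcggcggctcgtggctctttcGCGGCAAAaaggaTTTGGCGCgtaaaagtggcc
GINS2: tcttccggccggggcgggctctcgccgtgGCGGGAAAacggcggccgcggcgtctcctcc
MCM7 holds TTTCGCGC directly before the start shown, while its other RefSeq starts hold no E2F match. E2F1 holds 2 matches on opposite strands. POLE was higher in AGS and the other 3 were higher in HGC-27. Of all 13 S genes with the motif, PCNA, GINS1 and POLE were higher in AGS. CDC6 was not called, and the rest were higher in HGC-27. Of the S genes searched that lacked it, CDC45, RFC4 and FEN1 were higher in HGC-27 and RRM2 and CCNE1 higher in AGS, and RRM1 was not called. Whether the motif goes with the direction of difference was not tested.

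Among the G2/M genes, the cyclins, CDK1 and CDC25C all lay above 0, with a median log2 difference of 0.29. By the test, 4 of 5 were higher in AGS and none was higher in HGC-27, against 35.7% and 41.5% of all genes. CCNA2, cyclin A2, had 245 and 246 TPM in AGS, against 139 TPM in each HGC-27 library, a difference of 0.83 ± 0.06 with an adjusted p of 1.35e-39 by edgeR. CDK1, the kinase that these cyclins drive into mitosis, lay at 0.18 ± 0.05, CCNB2 at 0.31 ± 0.06 and CDC25C at 0.29 ± 0.11. The CDC25C call was lost in 3 alternative analyses, DESeq2 among them. CCNB1, cyclin B1, had 296 and 303 TPM in AGS, against 282 and 286 TPM in HGC-27. Its difference of 0.08 ± 0.05 had an adjusted p of 0.143 by edgeR.

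Mitotic kinases and checkpoint genes were divided, 4 higher in AGS and 3 higher in HGC-27. The Aurora kinases stood on different sides. AURKA (chr20:56369389-56392337), which acts at centrosomes and the spindle, had 202 and 213 TPM in AGS, against 95.4 and 98.9 TPM in HGC-27, a difference of 1.102 ± 0.06 with an adjusted p of 8.01e-58 by edgeR. AURKB, the kinase of the chromosomal passenger complex, lay at −0.17 ± 0.06, and BIRC5 (survivin), its partner in that complex, at −0.29 ± 0.06. BUB1 and BUB1B, both checkpoint genes, were also apart, at 0.53 ± 0.05 and −0.42 ± 0.06. BUB1B had 98.9 and 95.6 TPM in AGS, against 130 and 132 TPM in HGC-27. Exons of other genes hold 10.2% of the exon bases of BUB1B and 12.5% of those of PLK1. For BUB1B the gene overlapping most is BUB1B-PAK6, on the same strand. The checkpoint kinase TTK at 0.23 ± 0.06 and the mitotic kinase PLK1 at 0.15 ± 0.06 were called with small differences, and the calls of PLK1, TTK and AURKB were lost in some alternative analyses.

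The kinetochore genes held the largest G2/M difference. NDC80 (ENSG00000080986, chr18:2571511-2616635), which binds microtubules, had 38.3 and 39.3 TPM in AGS, against 124 and 128 TPM in HGC-27. The difference was −1.69 ± 0.06 with an adjusted p of 1.4e-87 by edgeR. NUF2, its direct partner in the same complex, had 93.0 and 93.1 TPM in AGS, against 78.1 and 76.5 TPM in HGC-27, a difference of 0.28 ± 0.06. The NDC80 level was below that of NUF2 in AGS and above it in HGC-27. CENPE, a kinetochore motor, and CENPF were higher in AGS at 0.50 ± 0.05 and 0.42 ± 0.05.

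Spindle genes were even, with TPX2 at 0.39 and the motor KIF23, which acts in cytokinesis, at 0.31 on the AGS side, and the motor KIF11 at −0.23 and HMMR at −0.46 on the HGC-27 side. HMMR, a spindle and hyaluronan-binding protein, had 74.6 and 76.1 TPM in AGS, against 105 and 104 TPM in HGC-27. Of the anaphase genes, UBE2C, the ubiquitin-conjugating enzyme of the anaphase-promoting complex, had 397 and 374 TPM in AGS, against 223 and 226 TPM in HGC-27, a difference of 0.79 ± 0.06. PTTG1 (securin), which restrains separase, had 103 and 113 TPM in AGS, against 159 and 172 TPM in HGC-27, a difference of −0.61 ± 0.06. CDC20, which directs the same complex to securin, lay at −0.36 ± 0.05. UBE2C was thus higher in AGS, while the genes of an activator and a substrate of the complex were higher in HGC-27.

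MKI67 and TOP2A, both widely used as proliferation markers, pointed in opposite directions. MKI67 (Ki-67, which coats mitotic chromosomes, chr10:128096659-128126385) had 329 and 304 TPM in AGS, against 145 and 146 TPM in HGC-27, a difference of 1.13 ± 0.05 with an adjusted p of 2.6e-72 by edgeR. TOP2A lay at −0.25 ± 0.05 with an adjusted p of 1.54e-06 by edgeR.

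A CHR motif was taken as TTTGAA or TTCGAA on either strand, and genes were again counted by a match at any RefSeq start. It was held by 15 of 20 G2/M genes and 2 of 19 S genes, MCM6 and RRM1, against 19.5% of all genes. CHR and CCAAT in the same promoter were held by 12 of 20 G2/M genes and 2 of 19 S genes, against 7.85% of all genes. CCAAT alone separated the sets less, being held by 16 of 20 G2/M genes and 13 of 19 S genes, against 39.7% of all genes. Among the matches in these genes, 1 E2F and 1 CHR match overlapped another motif. The same 60 bases are shown for 4 G2/M genes, with the CHR in capitals and the same choice of matches wholly before the start. MKI67 and PLK1 hold theirs at the same distance as CCNB2, and NDC80 and NUF2 hold theirs at or after the start. They lie at chr5:163460572-163460631, chr15:40161009-40161068, chr10:92593070-92593129 and chr15:59105086-59105145, all on the plus strand.
HMMR: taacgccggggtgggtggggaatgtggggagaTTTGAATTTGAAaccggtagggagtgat
BUB1B: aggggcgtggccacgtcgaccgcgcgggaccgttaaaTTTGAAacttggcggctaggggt
KIF11: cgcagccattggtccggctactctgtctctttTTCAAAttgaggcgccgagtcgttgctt
CCNB2: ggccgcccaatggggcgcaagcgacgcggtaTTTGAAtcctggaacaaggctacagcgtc
HMMR carries 2 adjoining copies, and KIF11 and CCNB2 also hold a CCAAT box further upstream in the window, on the minus strand in KIF11 and the plus strand in CCNB2. HMMR, BUB1B and KIF11 were higher in HGC-27 and CCNB2 was higher in AGS. NDC80 and MKI67, at the opposite ends of the G2/M differences, both hold a CHR.

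**Figure D3:**
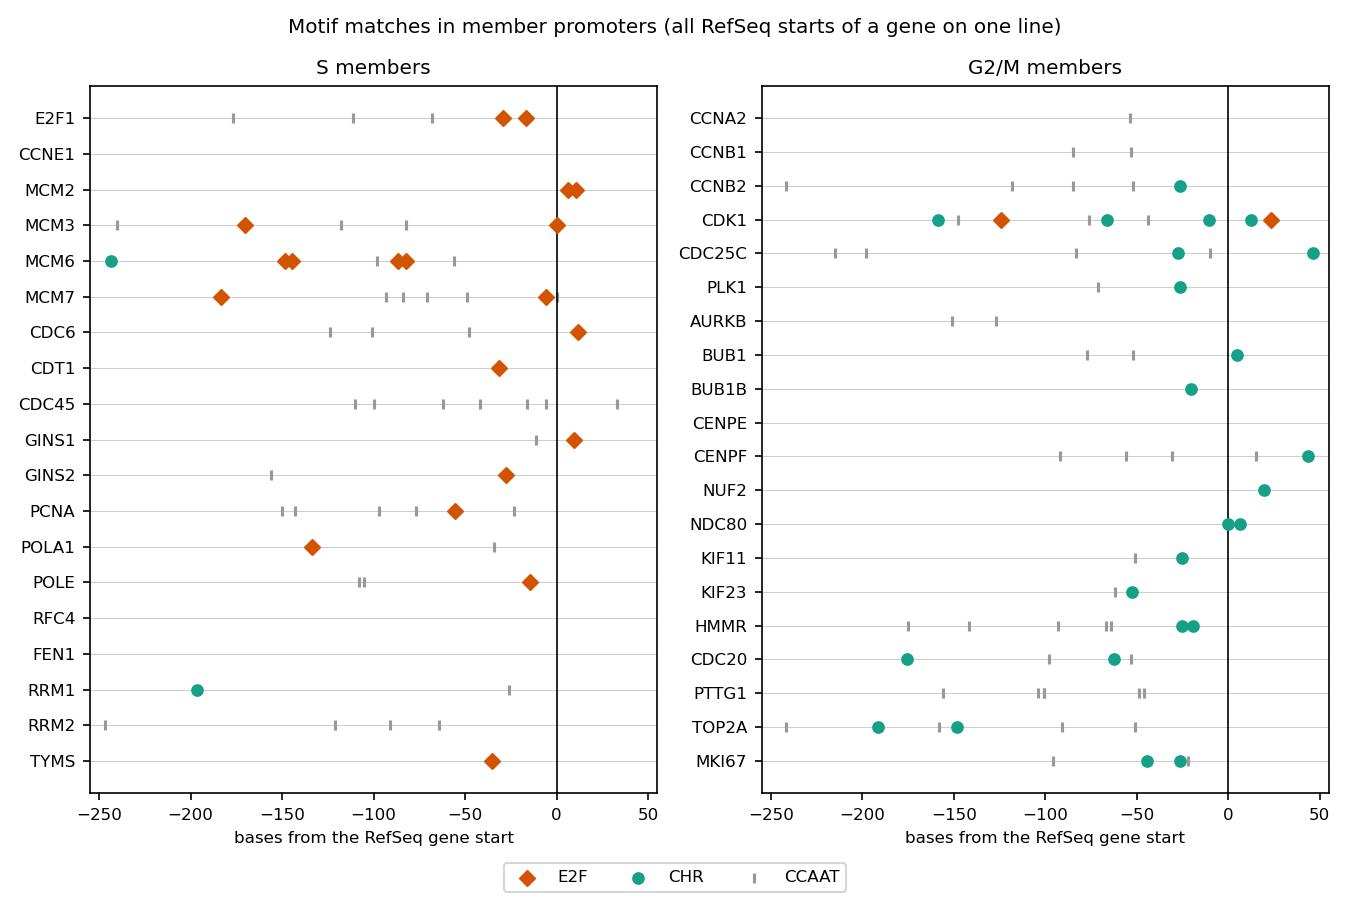
Position of each E2F, CHR and CCAAT match relative to the RefSeq start (bases) in the promoters of the S genes and the G2/M genes. Each row is a gene with all its RefSeq starts, and each mark is a match. E2F matches fall nearly all among the S genes, of which 13 of 19 hold one, and CHR matches mostly among the G2/M genes, of which 15 of 20 hold one.

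Further genes of the same programmes were taken from lists of the pathway. Of 43 other S genes tested, 9 were higher in AGS and 26 higher in HGC-27, with a median log2 difference of −0.32. Of 48 other G2/M genes, 28 were higher in AGS and 12 higher in HGC-27, with a median of 0.23. Both lists leaned the same way as the 22 and 25 genes, but were chosen with earlier results of these data known. Of all genes tested, 35.7% were higher in AGS and 41.5% higher in HGC-27. Counted by a match at any RefSeq start, 17 of 35 other S genes and 2 of 42 other G2/M genes with promoter sequences held an E2F motif. A CHR was held by 4 of 35 and 31 of 42.

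The largest differences among these were on the HGC-27 side of the S list. ATAD2, a chromatin-associated ATPase, had 77.2 and 77.0 TPM in AGS, against 1358 and 1350 TPM in HGC-27, a difference of −4.13 ± 0.06. DSCC1, part of an alternative clamp loader, had 33.0 and 33.6 TPM in AGS, against 415 and 405 TPM in HGC-27, a difference of −3.62 ± 0.06. LIG1, the ligase that joins Okazaki fragments, POLD1, the catalytic subunit of the lagging-strand polymerase, and the chromatin assembly factor CHAF1B were higher in AGS at 1.39, 0.93 and 0.43. In the G2/M list, ECT2, CDC25B and SMC4 were higher in AGS at 1.644, 1.408 and 1.203, and PSRC1, SPC24 and PRC1 were higher in HGC-27 at −1.70, −1.11 and −0.88. PRC1 shares 64.5% of its 31-base words with other genes, so its counts are uncertain.

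Regulators of these waves were mixed. Of 18 E2F and DREAM genes, 9 were higher in AGS and 6 higher in HGC-27, against 35.7% and 41.5% of all genes tested. Their median log2 difference was 0.10. The repressor E2F8 at 1.47, the E2F partner TFDP1 at 1.203 and LIN54, the MuvB subunit that contacts the CHR, at 1.04 were highest on the AGS side. The other E2F partner TFDP2 at −1.13, the MuvB subunit LIN52 at −1.06 and the activator E2F2 at −1.04 were lowest. MYBL2 (B-MYB) lay at 0.67 ± 0.05, and FOXM1 at 0.05 ± 0.06 with an adjusted p of 0.457 by edgeR. Both are given for their known role and fall outside the rule by which the other regulators were named.

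Of 13 regulators of G1, 6 were called in each direction, against 35.7% of all genes tested higher in AGS and 41.5% higher in HGC-27. CDKN1A (p21), the CDK inhibitor induced by p53, had 9252 and 9041 counts in AGS, against 410 and 358 counts in HGC-27, a difference of 4.58 ± 0.07. CDKN2A, the gene of p16 and ARF, had 0 counts in both AGS libraries, against 7294 and 8611 counts in HGC-27, and CCND2, a cyclin D gene, had 1 and 0 counts in AGS, against 5058 and 5562 counts in HGC-27. CDK6 at 2.27 and CDKN1C at 2.11 were also higher in AGS, and CDKN2C, another CDK inhibitor, was higher in HGC-27 at −3.06. The largest of these G1 differences exceeded every difference of the 47 genes, which all lay between −1.69 and 1.45.

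Some of the 47 genes stood among neighbours that differed in the same direction. TYMS and NDC80, the largest differences of each phase, lie on chromosome 18, where the 188 genes tested had a median log2 difference of −0.94. Within 2 Mb of TYMS, 7 of 7 other protein-coding genes tested lay below 0, with a median of −1.86, and within 2 Mb of NDC80 10 of 12 did, with a median of −1.23. On chromosome 20, whose 366 genes had a median of 0.55, 5 of 6 members were higher in AGS: PCNA, GINS1, AURKA, TPX2 and UBE2C, with neighbour medians of 0.49 to 0.75. E2F1, the other member there, lay at −0.59 against a neighbour median of 0.50. CCNE1 on chromosome 19 also stood against its surroundings, at 1.45 with 7 of 7 neighbours below 0 and a median of −0.59. Over the 46 members with at least 5 neighbours, Pearson's r between a gene's difference and its neighbours' median was 0.29 and Spearman's rho 0.36, and without the chromosome 18 genes they were 0.13 and 0.27. Without CDK1, whose neighbour median was −3.79, r was 0.49 and rho 0.38. Without both CDK1 and the chromosome 18 genes, r was 0.29 and rho 0.29. These are descriptions over genes whose windows partly share neighbours, chosen after the values had been seen, and copy number was not measured here.

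**Figure D4:**
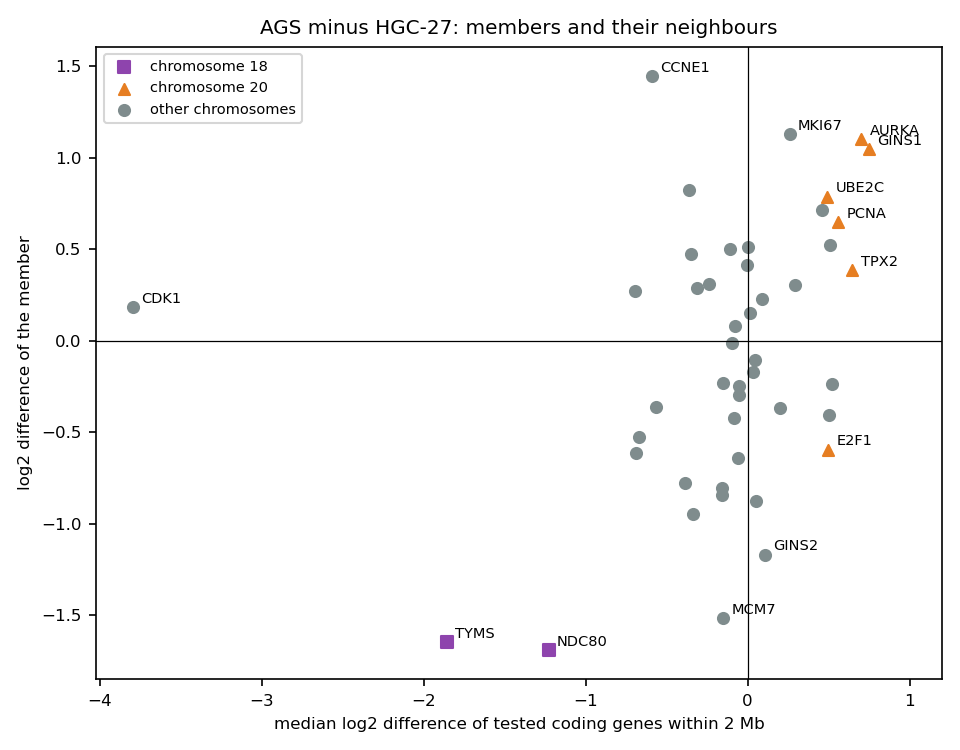
Log2 difference between AGS and HGC-27 of each member (vertical axis) against the median of the protein-coding genes tested within 2 Mb of it (horizontal axis). TYMS and NDC80 lie at the lower left, 5 genes of chromosome 20 at the upper right, and CCNE1 and E2F1 on the opposite sides of their neighbours.

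Estradiol was compared with control over both lines to ask whether 1 day of hormone changed these genes. None of the 47 was called by edgeR's quasi-likelihood test with Benjamini-Hochberg adjustment (smallest adjusted p 0.999937), where 28 of all genes tested, 0.153%, were called, 21 higher and 7 lower. At an unadjusted p under 0.05 there was 1 gene, PTTG1, and DESeq2 and limma-voom called none either. The fitted log2 changes ran from −0.13 to 0.13, with medians of −0.01 for the S and the G2/M genes and −0.0007 for all genes tested. No gene of the 4 pathway lists was called.

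PTTG1 (chr5:160421822-160428744) had 1711 and 2367 counts in the estradiol libraries of AGS and HGC-27, against 1765 and 2996 counts in their controls. After scaling for depth, it was lower with estradiol in both lines, with a log2 ratio of −0.13 in each, and the fitted change was −0.13 ± 0.06 with an unadjusted p of 0.0383 and an adjusted p of 0.999937 by edgeR. GINS2 stood at the other end, at 0.13 ± 0.09, with 652 and 1225 counts in the estradiol libraries of AGS and HGC-27, against 512 and 1389 counts in their controls. Its ratio was 0.26 in AGS and 0.03 in HGC-27. A change of the size of the standard errors, which were 0.05 to 0.11 log2, could not have been called.

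Within AGS, where 1 library stood against 1 and no test exists, the median log2 ratio of estradiol over control was 0.048 for S genes and 0.023 for G2/M genes, against 0.002 over every gene that averaged 1000 counts or more in the line. Exact 95% intervals, which cover counting error only, lay above 0 for 15 of 47 genes and below 0 for 4, where 12.6% and 13.6% of all genes averaging 10 counts or more did so. From 1000 counts upward they were 14 and 3 of 42, against 17.9% and 16.8% of all genes. Beyond GINS2, whose interval was 0.09 to 0.43, the highest ratios were PLK1 at 0.15 (0.08 to 0.21), POLE and TYMS at 0.12, MKI67 at 0.11 (0.09 to 0.13) and CDC20 at 0.11. MKI67 had 34753 counts with estradiol against 30283 in the control, and PLK1 4188 against 3556. The lowest were CDC25C at −0.17, PTTG1 at −0.13, AURKA at −0.08 and PCNA at −0.06. Of the 42 genes, 1 was beyond 1.1-fold in either direction, against 12.1% of all genes at that depth.

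Within HGC-27 the medians were −0.034 for S genes and −0.040 for G2/M genes, against −0.021 over every gene that averaged 1000 counts or more. Intervals lay above 0 for 1 of 47 genes, TOP2A, and below 0 for 15, where 10.1% and 11.2% of all genes averaging 10 counts or more did so. From 1000 counts upward they were 1 and 14 of 44, against 9.65% and 22.1% of all genes. CCNE1 was lowest, with 420 counts with estradiol against 566 in the control, a ratio of −0.22 (−0.41 to −0.03). TTK had 1964 against 2578 counts, a ratio of −0.18 (−0.27 to −0.10), and KIF23 3745 against 4771, a ratio of −0.14 (−0.20 to −0.08). PTTG1, E2F1, POLA1 and RRM2 followed at −0.13, −0.12, −0.11 and −0.11. Of the 44 genes, 2 were beyond 1.1-fold, against 9.37% of all genes at that depth.

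The ratios of the lines were also set side by side. Of the 47 genes, 22 were above 0 in AGS and below 0 in HGC-27, 3 the other way, 9 above 0 in both and 13 below 0 in both. Among 4605 genes that averaged 1000 counts or more in both lines, 34.2% were above 0 in AGS and below 0 in HGC-27, 18.5% the other way, 16.7% above 0 in both and 30.6% below 0 in both, and of the 41 members at that depth these were 21, 1, 8 and 11. Across the genes the ratios of the lines correlated at r = 0.19 (Pearson) and 0.15 (Spearman), again over genes and not replicates. Intervals lay on the same side of 0 in both lines for PTTG1 alone, and on opposite sides for MCM2, RRM2, CDC20 and TTK. At 1000 counts or more these were 1 and 4 of 41 members, or 2.44% and 9.76%, against 4.41% and 7.43% of the 4605 genes, so neither share is read as particular to the cell cycle genes. From 1000 counts upward, 95% of genes had ratios of −0.18 to 0.18 in AGS and of −0.17 to 0.17 in HGC-27. The 47 genes lay within these ranges except GINS2 in AGS and CCNE1 and TTK in HGC-27, of which GINS2 and CCNE1 averaged fewer than 1000 counts there.

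**Figure D5:**
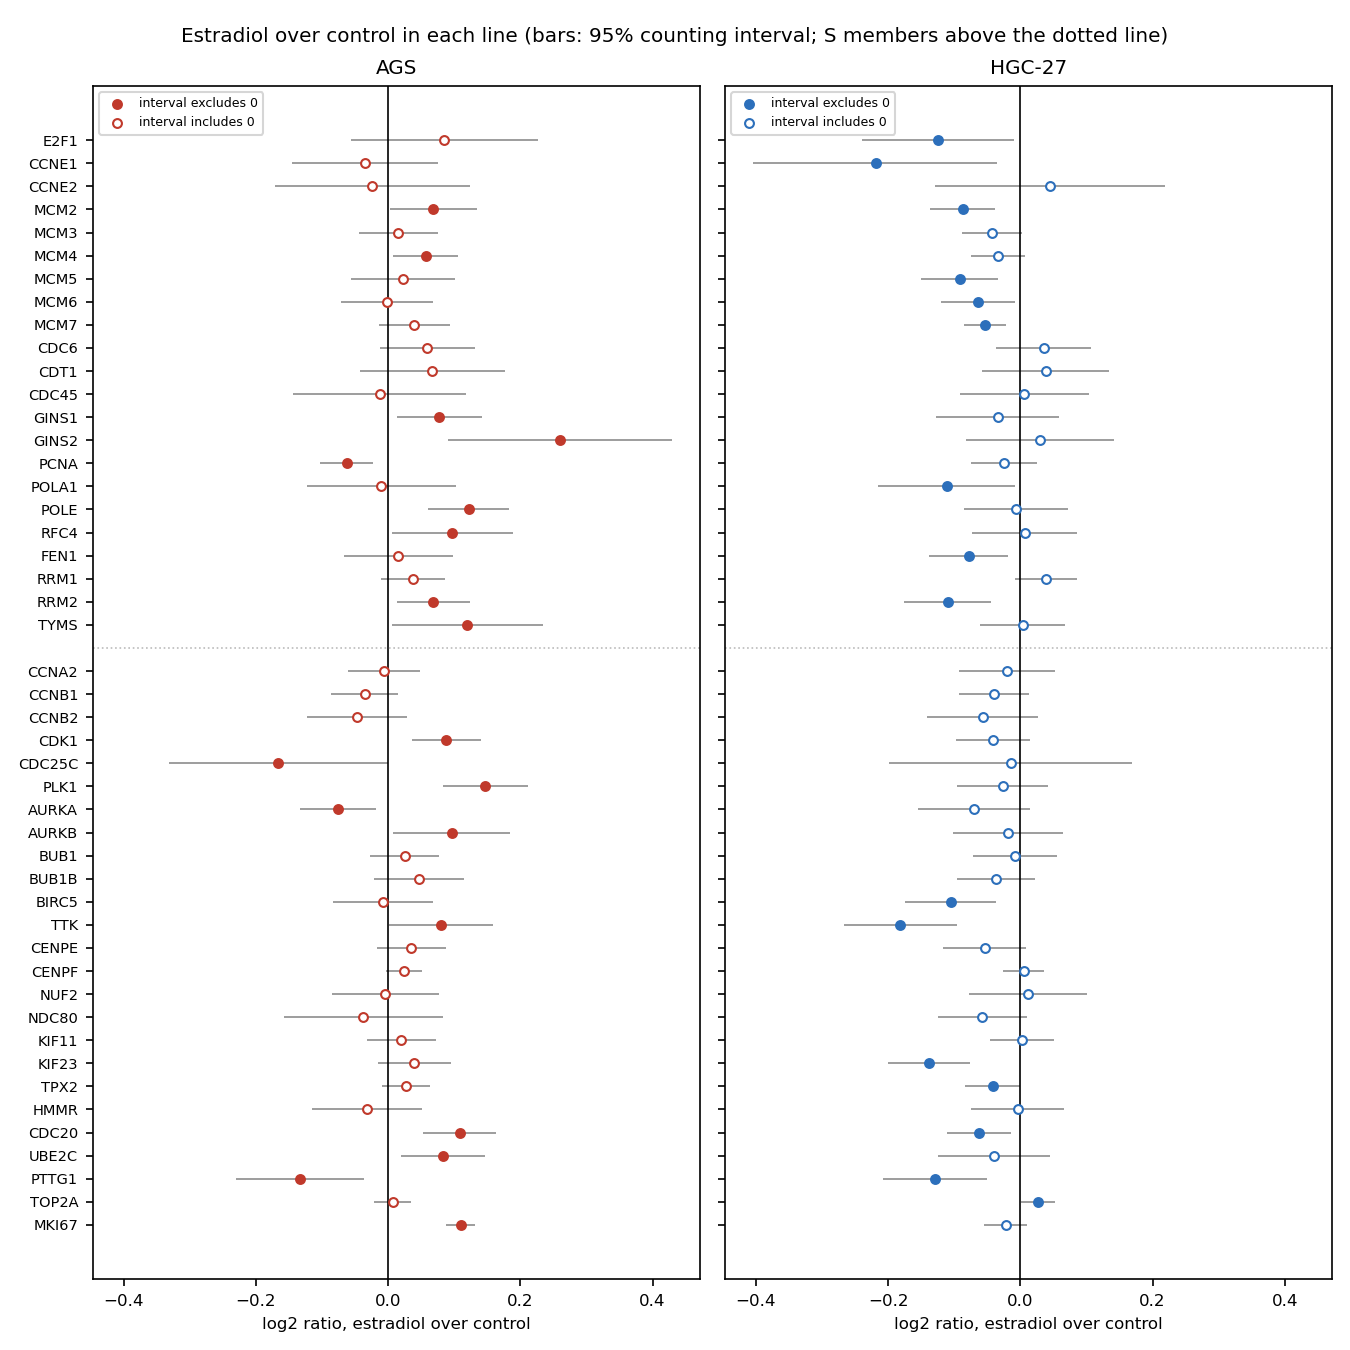
Log2 ratio of estradiol over control for each of the 47 genes within AGS and within HGC-27, with exact 95% counting intervals. Most S and G2/M genes lie near 0, slightly above it in AGS and slightly below it in HGC-27, and PTTG1 lies below 0 in both.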

How the data were processed

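Total RNA of the 4 samples was sequenced. The submitters' processing notes name HISAT2, an aligner, and featureCounts, a read counter; versions, strand setting and the treatment of multiply mapped reads are not given in the sources used here. What the authors deposited are raw counts, whole numbers with no normalization, beside further columns with gene length, position and name. The notes name hg18, but for 47 of 47 members start and end equal GENCODE release 29 on GRCh38, so GRCh38 is given. TPM were computed from the counts and the deposited gene length.

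Counts were tested with edgeR 4.0.16 in R 4.3.3 after filterByExpr and TMM scaling. The quasi-likelihood model held treatment and, as a block, the cell line, and p-values were adjusted by Benjamini-Hochberg over 18278 genes, with 0.05 as threshold. Residual degrees of freedom were 1, prior degrees of freedom 397, and the biological coefficient of variation 4.59%. The replicate number marks the cell line, so libraries of 1 number are paired; they correlated at 0.997 in each line (log2 CPM plus 1). Ratios within a line used a prior of 0.5 counts and exact conditional binomial intervals of 95%. The intervals cover counting error only, because each line had 1 library per condition. PCR copies of a molecule are counted as separate reads, so the intervals can be too narrow even for that error. DESeq2 1.42.0 and limma 3.58.1 (voom) were alternatives. The steps were tested on simulated data.

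The members, lists and tests were chosen with earlier results of these data known. Named in full were, per phase and comparison, the 4 members with the largest differences in each direction, the 3 highest and 2 lowest levels and, of the pathway lists, the 3 largest differences in each direction; other members are given by value, range or count, and a gene that fell under this rule is not reported here. Promoter windows were limited to motif matches wholly before the start. Of the members, 6 had at least 10% of exon bases in exons of another gene, and none shared at least 50% of its 31-base words with other genes.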

Additional observations from a re-analysis of the deposited data

Results flagged for a closer look

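For 4 genes the counting interval of estradiol over control lay above 0 in AGS and below 0 in HGC-27, so that the libraries of the lines moved in opposite directions; whether the lines differed was not tested, since each ratio rests on 1 library against 1. MCM2 had a log2 ratio of 0.069 in AGS and −0.087 in HGC-27. RRM2 had 0.068 in AGS and −0.11 in HGC-27. CDC20 had 0.11 in AGS and −0.063 in HGC-27. TTK had 0.079 in AGS and −0.18 in HGC-27, the widest gap of the 4. Of the exon bases of MCM2 and RRM2, 23.6% and 20.2% lie in exons of another gene. Such opposite intervals were found in 9.76% of the members averaging 1000 counts or more in both lines, against 7.43% of all genes at that depth.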

How the results depend on the processing

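Counts of called members, medians of both phases and the estradiol result kept their direction and side of the threshold under every alternative run: other scaling, other filters, robust fitting, DESeq2, limma-voom, a model without treatment, and each library left out. G2/M genes higher in AGS numbered 12 to 15 and S genes higher in HGC-27 14 to 15, and the medians ran from 0.16 to 0.26 and from −0.53 to −0.41. Without the replicate block (the cell line), no member and none of all genes was called for estradiol, as in the paired fit for members. Over all genes, the 28 estradiol calls became 23 with DESeq2's size factors, 13 with total counts, 17 with robust fitting, 1 with DESeq2, 0 with limma-voom and 2 without genes of shared sequence, an alternative added after the data were seen. Leaving out a library leaves 1 pair for estradiol, so that test was not run there. For single genes, CDC6 ranged from −0.036 to 0.032 with a library left out, turning above 0 without the AGS control (not called). PLK1 lost its call in 7 alternatives (log2 0.09 to 0.16), CDC25C in 3, TTK and AURKB in 2 each and POLA1 in 1; RRM1 gained one in 7 and CCNB1 in 1; the cause was not tested. With 1 library per line and condition, spread is borrowed across genes, and culture-to-culture variation is not measured. The size of the adjusted p-values between the lines varied widely with the method. That of MCM7 was 8.8e-100 in the main edgeR fit and 1.8e-202 by edgeR with protein-coding genes only. It was 2.0e-16 by edgeR with the cell line alone in the model, and 1.4e-05 by limma-voom.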

Other observations

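The counts of PRC1, which bundles the microtubules of the central spindle, rest in part on shared sequence. It had 66 and 41 counts in the estradiol and control libraries of AGS, against 96 and 98 counts in those of HGC-27, with 64.5% of its 31-base words recurring in other genes and 58.4% of its exon bases in exons of AC068831.7.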
